A study of Mus musculus with 2 samples.

Results

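Adamts1, Adamts2, Adamts4, Adamts5, Adamts6, Adamts9 and Adamts12, 7 genes of the deposited list of 21849, encode secreted metalloproteases of the ADAMTS family. The genes were chosen by name, and 19 ADAMTS genes were listed in all. They were measured by single-cell RNA sequencing in 1 library of primary costal-cartilage-derived stem cells (CDSCs) and 1 library of cultured CDSCs at passages 2 to 3. Both came from rib cartilage of neonatal C57BL/6J mice of the CD45.1 or ZsGreen strain, digested with collagenase and sorted as CD45- CD51+, and the number of animals behind each library is not given in the sources used here. Cultured CDSCs were then grown in minimum essential medium with fetal bovine serum, and the comparison addressed how CDSCs change on expansion in culture. Bone marrow is the labelled tissue of both libraries, while 13 of 13 chondrocyte markers stood at 10 or more CPM (UMI counts per gene, scaled to library depth) in the primary library and 3 of 13 in the cultured library.

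ADAMTS proteases are made as inactive precursors, are usually trimmed by furin-type convertases, and act outside the cell or at its surface. Adamts1, Adamts4, Adamts5 and Adamts9 encode proteases that cut aggrecan, versican or both, the large proteoglycans that hold water in cartilage and loose connective tissue. Adamts2 encodes a procollagen N-proteinase, which removes the amino-terminal propeptide of fibrillar collagens. Adamts12 encodes a protease that cuts cartilage oligomeric matrix protein, and Adamts6 one that is related to Adamts10 and is linked to fibrillin microfibrils.

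A unique molecular identifier (UMI) marks a captured transcript. Barcodes with 500 or more genes, 1000 or more UMIs and no more than 10% mitochondrial UMIs were analysed, which left 11746 primary cells with 137148874 UMIs and 5338 cultured cells with 330129909 UMIs, with medians of 10026.5 and 56864.5 UMIs per cell. Each group was 1 library, which leaves replicate error unknown and allows no test, and intervals are exact 95% intervals that cover counting error only. The libraries shared 15 kept barcodes. ZsGreen had 60957 UMIs in primary CDSCs and 0 in cultured CDSCs, which allows up to 0.00909 CPM, and the Y-linked gene Uty had 11 and 20195, so culture and the sex and strain of the donors cannot be told apart. In summed counts, fewer cells that express a gene and less RNA per cell cannot be told apart either, and shares of cells are therefore given below.

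The 7 genes did not differ between the libraries in the same direction. Adamts5 went from 2.01 CPM in the primary to 271 CPM in the cultured library, and Adamts1, Adamts4, Adamts2 and Adamts6 were also higher in the cultured library. Adamts9 and Adamts12 were lower there. All 7 genes together took 115 CPM in primary CDSCs and 528 CPM in cultured CDSCs, and Adamts5 supplied 1.74% of those UMIs in primary and 51.4% in cultured CDSCs. Adamts6, the most abundant of the 7 genes in primary CDSCs, supplied 33.5% and 15.2%. The libraries were made with a 3' kit, so these levels were not divided by gene length. The genes span from 9287 bases for Adamts1 to 284442 bases for Adamts12. Whether intronic reads were counted is not given in the sources used here. An effect of gene length on the order of the genes was therefore not tested.

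By a difference of at least 4-fold, 4 of the 7 genes were higher in the cultured library and 0 were lower. With TMM scaling, which moved the median log2 ratio of all genes from 0.37 to 0.16, 2 of them were at least 4-fold higher, Adamts5 and Adamts1, since Adamts4 and Adamts2 lay just past the limit. The count was 3 without the cells of highest doublet score, where Adamts4 had a log2 ratio of 1.98, and 3 with each cell weighing the same, where Adamts2 had 1.88. Of the 12839 genes that reached 1 CPM in one of the libraries, 12.6% were higher by this measure and 7.48% were lower. Of the 6 ADAMTS genes that reached 10 CPM, 3 were higher by 4-fold or more, where 10.6% of all 9115 such genes were higher and 5.73% lower. The median log2 ratio, cultured over primary, was 2.09 over the 7 genes and 0.36 over all genes that reached 1 CPM. At 10 CPM it was 1.57 over the 6 genes and 0.37 over all genes.

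**Figure D1:**
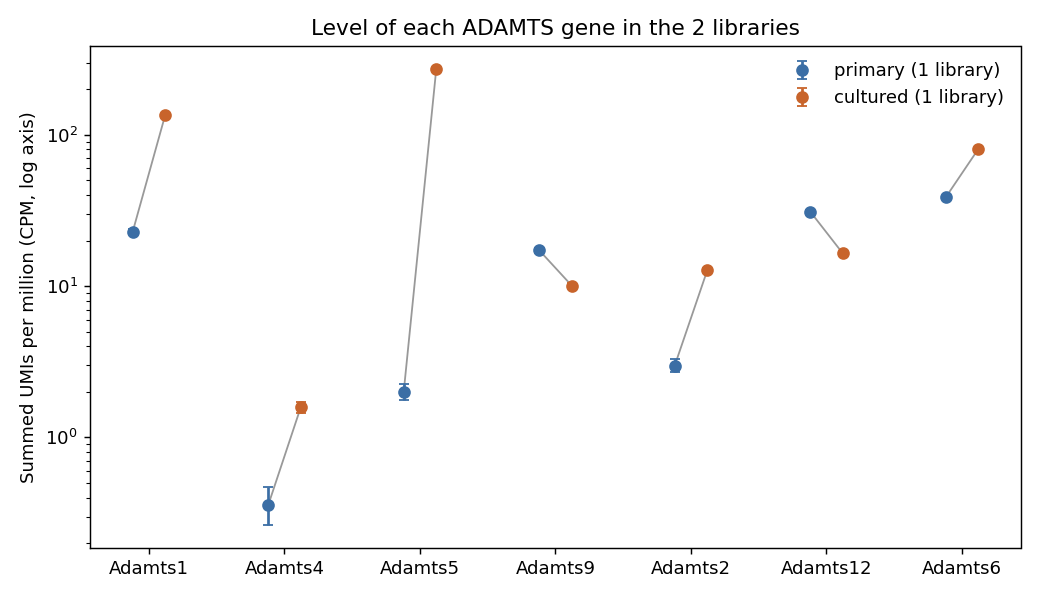
Level of each gene as CPM summed over the kept cells (log axis) in the primary (blue) and cultured (orange) library, 1 library each. Bars are exact 95% Poisson intervals and lie within the symbol for most points, and grey lines join the same gene. Adamts5 runs from 2.01 to 271 CPM, while the lines of Adamts9 and Adamts12 slope down.

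Adamts5, which encodes a main aggrecanase of mouse cartilage (ENSMUSG00000022894, chromosome 16, 85856173 to 85901828 on the minus strand, GRCm38), had 275 UMIs in primary CDSCs and 89557 UMIs in cultured CDSCs. These were 2.01 CPM (1.78 to 2.26) and 271 CPM (270 to 273), a log2 ratio of 7.08 (6.91 to 7.26), or 135-fold. It was sixth of the 7 genes in primary CDSCs and first in cultured CDSCs. After each cell was thinned to 5000 UMIs, a UMI of Adamts5 was present in 0.794% (0.636 to 0.978) of 10959 primary cells and in 48.4% (46.9 to 49.9) of 4543 cultured cells. Of the thinned cultured cells, 21.8% had 1 UMI, 9.97% had 2 UMIs and 16.7% had 3 or more UMIs, up to 26 UMIs in a cell. The variance of its UMIs per cell was 3.68 times the mean, so the gene was more unevenly spread over cultured cells than counting error alone gives.

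Adamts5 UMIs also appeared in cells with markers of other cell types. Whether free RNA, doublets or the cells' own transcripts supplied them was not tested. In 9 cultured cells named haematopoietic-like from their markers, Adamts5 stood at 88.8 CPM (62.2 to 123), below the 271 CPM of the library, and a UMI was present in 1 of 9 thinned cells, or 11.1% (0.281 to 48.2). The cells had a median of 35946 UMIs, against 56864.5 in the library. In the primary library, 26 cells led by mast cell and endothelial genes held 2 Adamts5 UMIs, or 6.82 CPM (0.826 to 24.7). This interval holds the 2.01 CPM of the library. After thinning, 0 of 18 of these cells had a UMI of Adamts5. That allows a share of up to 16.7% by a limit of 3 counts and 18.5% by the exact interval. With 18 cells the limit is too wide to say whether the primary share of 0.794% stood above free RNA. Among the primary clusters described below, Adamts5 ran from 0.508 CPM (0.244 to 0.934) in cluster 2 to 21.4 CPM (16.1 to 27.8) in cluster 8.

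Adamts1 (ENSMUSG00000022893), which encodes a versican- and aggrecan-cleaving protease needed for ovulation, lies next to Adamts5 on chromosome 16 (85793827 to 85803113, minus strand). A gap of 53059 bases separates the genes and holds 1 non-coding gene. Adamts1 had 3144 UMIs, or 22.9 CPM (22.1 to 23.7), in primary CDSCs and 44681 UMIs, or 135 CPM (134 to 137), in cultured CDSCs, giving a log2 ratio of 2.56 (2.51 to 2.61). Its share of thinned cells was 8.79% (8.26 to 9.33) in primary CDSCs and 38.3% (36.9 to 39.8) in cultured CDSCs. Adamts1 was the more abundant of the neighbours in primary CDSCs and Adamts5 in cultured CDSCs. In the 9 haematopoietic-like cultured cells it stood at 101 CPM (72.6 to 137), an interval that holds the level of the whole library, while 1 of 9 thinned cells had a UMI. In the cultured library, Adamts5 was detected in 57.6% of thinned cells with a UMI of Adamts1 and in 42.7% of those without one, and 22.1% of cells had both.

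The RefSeq promoters of Adamts1 and Adamts12 are shown because they belong to the gene with the highest and the gene with the lowest log2 ratio among the 4 genes with an entry in the promoter table used here. Each line gives the 250 bases before the start of the gene, 5' to 3' on the gene's own strand in GRCm38.p6, with a match to TATAAA in capitals. The Adamts1 window is chr16:85803114-85803363 on the minus strand and the Adamts12 window chr15:11064523-11064772 on the plus strand.
Adamts1: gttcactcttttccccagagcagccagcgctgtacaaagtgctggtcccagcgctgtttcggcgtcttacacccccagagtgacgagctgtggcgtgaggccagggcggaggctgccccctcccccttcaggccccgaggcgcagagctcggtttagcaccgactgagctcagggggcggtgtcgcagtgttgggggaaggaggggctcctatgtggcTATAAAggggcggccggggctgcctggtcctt
Adamts12: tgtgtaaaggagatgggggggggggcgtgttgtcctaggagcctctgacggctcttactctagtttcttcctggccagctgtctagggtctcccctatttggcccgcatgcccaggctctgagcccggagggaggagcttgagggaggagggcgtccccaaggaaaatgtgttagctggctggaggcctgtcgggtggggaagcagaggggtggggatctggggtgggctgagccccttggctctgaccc

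The match in Adamts1 covers bases 32 to 27 before the start, and 12.4% of all 32851 promoters hold TATAAA on either strand. The other motifs searched on both strands were TGANTCA (the AP-1 site, in 6.75% of promoters), TGACGTCA (the CRE, in 1.55%), TGTGGT (bound by RUNX factors, in 14.0%), GGAATG (bound by TEAD factors, in 12.6%) and GGGANTTCC (an NF-kappaB site, in 1.43%). The windows of Adamts1, Adamts9, Adamts2 and Adamts12 held 1 match in all, the one shown, which says only that the other letters are not in these 250 bases. Their GC content was 65.6%, 71.2%, 78.0% and 63.2%, against a median of 52.4% over all promoters. A match is a description of the sequence and was not tied to the levels.

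Adamts4, which encodes the other classical aggrecanase (ENSMUSG00000006403, chromosome 1, 171250421 to 171260637, plus strand), was the least abundant of the 7 genes in both libraries. It had 49 UMIs, or 0.357 CPM (0.264 to 0.472), in primary CDSCs and 522 UMIs, or 1.58 CPM (1.45 to 1.72), in cultured CDSCs. The log2 ratio was 2.15 (1.72 to 2.60), and a UMI was present in 0.137% (0.0766 to 0.226) and 0.924% (0.667 to 1.25) of thinned cells. Primary Adamts4 UMIs came mostly from few cells outside the chondrocyte-like clusters, as described with the clusters. Without those cells and the haematopoietic-like cultured cells, the log2 ratio was 3.82.

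Adamts9 (ENSMUSG00000030022, chromosome 6, 92772699 to 92943492, minus strand) encodes a large versican-cleaving protease. It had 2364 UMIs, or 17.2 CPM (16.5 to 17.9), in primary CDSCs and 3324 UMIs, or 10.1 CPM (9.73 to 10.4), in cultured CDSCs, giving a log2 ratio of -0.78 (-0.85 to -0.70). The share of thinned cells was 5.35% (4.93 to 5.78) and 4.997% (4.38 to 5.67), with overlapping intervals. The level over all kept cells thus differed beyond counting error, which leaves out the uneven spread over cells given next. The overlap in the shares, taken over thinned cells only, does not show that the shares of Adamts9 were equal. The variance of its UMIs per cell was 6.88 times the mean in the thinned primary cells, and 2.24 times the mean without the cell with the most Adamts9 UMIs, a value chosen after seeing the data. It was 1.71 times the mean in the cultured library. Adamts9 and Adamts2 overlap genes on the opposite strand, so their counts rest on the strand setting of the authors' counting. One primary cell held 66 UMIs of Adamts9 among 5424 UMIs in all.

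Adamts2, the procollagen N-proteinase gene (ENSMUSG00000036545, chromosome 11, 50602084 to 50807573, plus strand), had 409 UMIs, or 2.98 CPM (2.70 to 3.29), in primary CDSCs and 4188 UMIs, or 12.7 CPM (12.3 to 13.1), in cultured CDSCs. The log2 ratio was 2.09 (1.94 to 2.24), and a UMI was present in 1.20% (1.01 to 1.43) and 5.94% (5.27 to 6.67) of thinned cells. Its relative Adamts3, which encodes the N-proteinase known for procollagen II, ran the other way, from 139 CPM (137 to 141) to 6.25 CPM (5.98 to 6.52). Of the summed UMIs of the 3 procollagen N-proteinase genes, Adamts2 held 2.09% and Adamts3 97.5% in the primary library. In the cultured library Adamts2 held 60.1%, Adamts3 29.6% and Adamts14 10.4%. Col2a1, the gene of the cartilage collagen, stood at 53268 and 490 CPM, and Col1a1, that of the collagen of bone and skin, at 149 and 705 CPM.

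Adamts12 (ENSMUSG00000047497, chromosome 15, 11064790 to 11349231, plus strand) had 4262 UMIs, or 31.1 CPM (30.1 to 32.0), in primary CDSCs and 5435 UMIs, or 16.5 CPM (16.0 to 16.9), in cultured CDSCs. The log2 ratio was -0.92 (-0.97 to -0.86), and the share of thinned cells was 12.0% (11.4 to 12.6) and 7.68% (6.92 to 8.50). Comp, which encodes the matrix protein that Adamts12 cuts, went from 2956 to 46.5 CPM, a log2 ratio of -5.99 (-6.01 to -5.97).

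Adamts6 (ENSMUSG00000046169, chromosome 13, 104287835 to 104496695, plus strand) had 5290 UMIs, or 38.6 CPM (37.5 to 39.6), in primary CDSCs and 26509 UMIs, or 80.3 CPM (79.3 to 81.3), in cultured CDSCs. The log2 ratio was 1.06 (1.02 to 1.10), and the share of thinned cells was 14.2% (13.5 to 14.8) and 23.9% (22.6 to 25.1). Its relative Adamts10 went from 61.9 to 25.3 CPM, a log2 ratio of -1.29 (-1.33 to -1.25). Both Adamts6 and Adamts10 are tied to fibrillins, and Fbn1 stood at 98.3 and 163 CPM and Fbn2 at 45.8 and 398 CPM.

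Thinning left out 787 primary and 795 cultured cells. Without it, the shares ran from 0.264% for Adamts4 to 26.1% for Adamts6 among primary cells and from 7.83% for Adamts4 to 82.0% for Adamts5 among cultured cells. A thinned primary cell seldom carried several of these transcripts. At least 1 of the 7 genes was detected in 35.7% of primary and 76.2% of cultured thinned cells, and at least 2 of them in 6.02% and 39.5%.

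**Figure D2:**
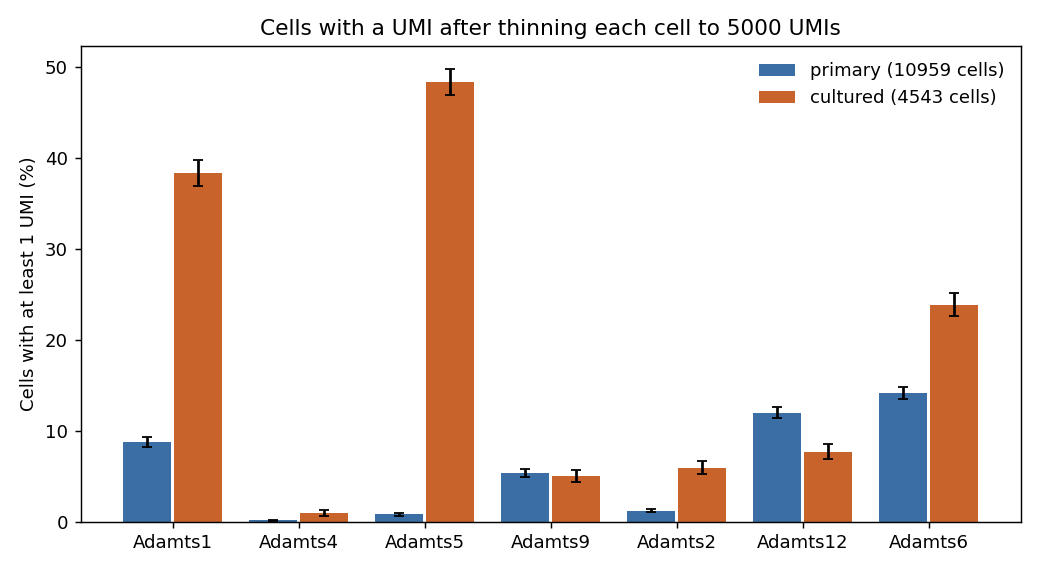
Percentage of cells in which a UMI of each gene was found after every cell was thinned to 5000 UMIs, in 10959 primary (blue) and 4543 cultured (orange) cells. Bars carry exact 95% binomial intervals. The Adamts5 and Adamts1 bars reach 48.4% and 38.3% in cultured cells, and the Adamts9 bars stand at 5.35% and 4.997% with overlapping intervals.

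Cells of each library were clustered without the 7 genes, and levels below are CPM within a cluster. All primary clusters 1 to 7 were chondrocyte-like and cluster 9 was dividing-like. Cluster 8, with 289 cells or 2.46% of primary cells, held markers of fibroblasts, endothelium and mast cells and was not named. In that cluster 6 of the 7 genes had their highest level: Adamts9 at 128 CPM, Adamts6 at 113 CPM, Adamts1 at 79.0 CPM, Adamts2 at 47.7 CPM, Adamts5 at 21.4 CPM and Adamts4 at 13.0 CPM. It supplied 1.91% of the library's UMIs and 69.4% of the Adamts4, 30.6% of the Adamts2, 20.4% of the Adamts5 and 14.2% of the Adamts9 UMIs.

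Clustered again, in a step added after seeing the data, these cells fell into 9 subclusters in which different ADAMTS genes were high. A subcluster of 26 cells led by the mast cell genes Tpsb2, Cma1 and Mcpt4 and the endothelial genes Gpihbp1, Sox17 and Robo4 held Adamts9 at 703 CPM (610 to 806), Adamts1 at 283 CPM (226 to 351) and Adamts4 at 58.0 CPM (33.8 to 92.9). The cell with 66 Adamts9 UMIs belonged to it, out of 206 such UMIs there. A single cell also held 7 of its 17 Adamts4 UMIs, and a single cell 20 of its 83 Adamts1 UMIs. After thinning, Adamts9 was present in 14, Adamts1 in 11 and Adamts4 in 3 of 18 of these cells. Adamts5 and Adamts2 had 2 and 1 UMIs there, or 6.82 CPM (0.826 to 24.7) and 3.41 CPM (0.0864 to 19.0). Both intervals hold the level of the library. A subcluster of 9 smooth muscle and pericyte-like cells held Adamts9 and Adamts12 at 249 CPM each (160 to 370), Adamts2 at 166 CPM (94.9 to 270) and Adamts4 at 104 CPM (49.7 to 191). In the 5 subclusters named mesenchymal fibroblast-like, of 27 to 44 cells each, Adamts6 stood between 108 and 285 CPM, above the 38.6 CPM of the library. Unnamed subclusters of 39 and 35 cells passed 6 and 3 fibroblast markers. Adamts6 stood there at 72.5 CPM (37.4 to 127) and 47.6 CPM (32.4 to 67.6), and both intervals hold the library level. The subcluster of 39 cells held Adamts2 at 169 CPM (112 to 244). Acan stood at 962 CPM in the 26 mast cell and endothelial cells, against 1954 CPM in the library, so these cells also carried cartilage transcripts, and the part of free RNA or of doublets in that was not tested.

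Among the 7 chondrocyte-like primary clusters, Adamts12 varied most in absolute level. It reached 83.0 CPM (79.1 to 87.1) in cluster 1, led by Tll1, Clu and Cilp2, and 8.58 CPM (7.42 to 9.88) in cluster 4, led by Acta2, Aoc2 and Grem1. Cluster 1 held 39.4% of the Adamts12 UMIs and 14.8% of all UMIs. Adamts9 ran the other way between these clusters, at 10.7 CPM (9.35 to 12.3) in cluster 1 and 22.5 CPM (20.6 to 24.6) in cluster 4. Adamts1 was highest in cluster 7 at 34.8 CPM (31.2 to 38.6), led by Slc35f1, Runx3 and Wnt5b, and cluster 5 at 32.6 CPM (30.1 to 35.2), where Slc22a4 and Tac1 were among the leading genes, and these intervals overlap. Adamts5 stayed at or under 3.41 CPM in all 7 of these clusters.

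In the cultured library every one of the 8 clusters with at least 50 cells carried Adamts5, from 165 CPM (160 to 170) in cluster 6, led by Mmp13, Csmd1 and Sfrp4, to 460 CPM (452 to 469) in cluster 7, led by Nr5a2, Barx1 and Sfrp2. The spread was 2.78-fold, and at Leiden resolution 1.0 the clusters ran from 147 to 817 CPM. Cluster 7 also held the highest Adamts2, at 36.1 CPM (33.8 to 38.6). Cluster 8, of 174 cells with Myh11, Ptn and Thy1 among their leading genes, held the highest Adamts1 at 239 CPM, Adamts9 at 55.9 CPM, Adamts12 at 54.6 CPM and Adamts4 at 6.23 CPM, with Adamts5 at 428 CPM. It passed the marker rule for 3 fibroblast and 3 smooth muscle and pericyte genes and was not named. At Leiden resolution 1.0, the highest Adamts4 and Adamts9 shared a cluster with Ptn and Thy1 among its leading genes, and Adamts1 and Adamts12 were highest elsewhere. Adamts6 was highest in cluster 5, at 136 CPM (133 to 139), led by Hmcn1, Ahrr and Nmnat2. Adamts1 stood at 75.6 CPM (73.5 to 77.7) in the dividing-like cluster 4, below 135 CPM in the library. Cluster 3 held 871 barcodes with a median of 1285 UMIs and had the lowest Adamts1, Adamts4, Adamts12 and Adamts6.

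**Figure D3:**
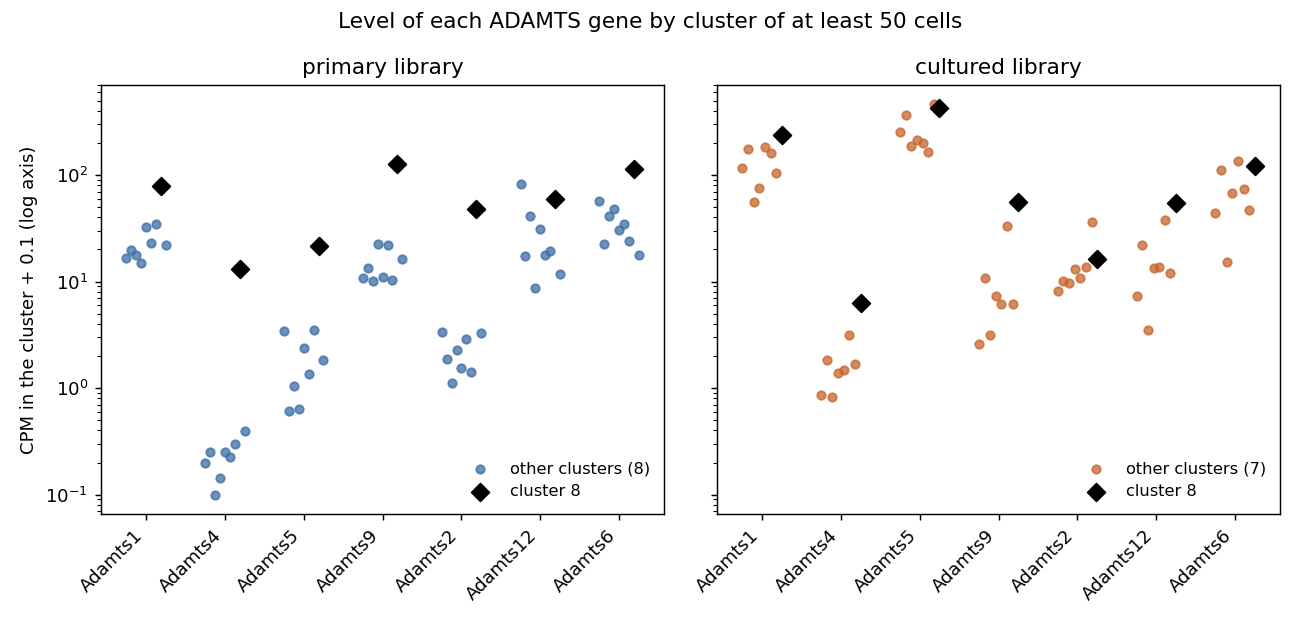
Level of each gene in the clusters with at least 50 cells of the primary library (left, 9 clusters) and the cultured library (right, 8 clusters), as CPM in the cluster plus 0.1 on a log axis. Circles are clusters and the black diamond is cluster 8 of each library, 2 unrelated clusters that share a number. In the primary library the diamond lies highest for every gene but Adamts12, and in the cultured library for Adamts1, Adamts4, Adamts9 and Adamts12.

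Across the cultured clusters Adamts9 and Adamts12 had the most alike levels of any pair among the 6 genes that reached 10 CPM, with a Pearson r of 0.95 on log2(CPM + 1) over 8 clusters and 0.99 over the 7 clusters without the shallow cluster 3. Across the primary clusters their r was 0.16 over 9 clusters and -0.71 over 8 clusters without cluster 8. The neighbours Adamts1 and Adamts5 had an r of 0.36 over the 8 cultured clusters. Over the 8 cultured clusters the genes most like Adamts5 were Cald1 at 0.95, Slc1a6 at 0.93 and Rhob at 0.93, and those most like Adamts1 were Coro1b and Ccni at 0.98 each. Those most like Adamts12 were Boc, Klhl29 and Prkag2, each at 0.99 over the 8 cultured clusters, and Flrt2, Sike1 and Serpinb6a over the 9 primary clusters, at 0.99, 0.99 and 0.98. These genes were picked as the highest among all genes that reached 10 CPM in the library, and such a choice over few clusters gives high values by itself. Without cultured cluster 3, those most like Adamts12 were Cdh11, Klhl29 and Edil3, and those most like Adamts5 were Rhob, Cald1 and Adm. Without primary cluster 8, Pam, Serpinb6a and Tsc1 were most like Adamts12. Clusters of a library share its preparation and differ in depth, so these values are descriptions with no p.

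The genes that surround these proteases went in both directions. Of 72 listed genes found in the files, 53 reached 10 CPM in one of the libraries, of which 12 were at least 4-fold higher in the cultured library, 13 at least 4-fold lower and 28 in between. Over all genes at this level, 10.6% were higher and 5.73% lower by that limit, and the counts of each list below are read beside these shares. Of the 12 other ADAMTS genes, Adamts3 and Adamts10 reached 10 CPM and both were lower in the cultured library, Adamts3 by over 4-fold. Of the 5 ADAMTS-like genes at 10 CPM, which encode proteins without the protease part, 2 were at least 4-fold higher and 0 lower, with Adamtsl5 at 0.642 and 34.1 CPM.

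Among 5 proteoglycan substrate genes, 3 were at least 4-fold lower and 1 higher. Acan, which encodes aggrecan, stood at 1954 CPM in primary CDSCs and 2.51 CPM in cultured CDSCs, and Vcan, which encodes versican, at 2.90 and 17.5 CPM. For every 1000 UMIs of Acan the libraries held 21.8 and 166366 UMIs of Adamts1, Adamts4, Adamts5 and Adamts9 together, a ratio set by both sides. For every 1000 UMIs of Vcan they held 14653 and 23845. Of those aggrecanase UMIs, Adamts1 made 53.9% and Adamts9 40.5% in the primary library, and Adamts5 64.9% and Adamts1 32.4% in the cultured library.

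Of 5 inhibitor genes 1 was at least 4-fold higher and 2 lower. Timp3, the main inhibitor of the aggrecanases, stood at 252 and 1349 CPM, and 1000 UMIs of Timp3 faced 169 and 310 aggrecanase UMIs. A2m, which encodes the broad protease trap alpha-2-macroglobulin, stood at 186 and 0.833 CPM. Lrp1, the receptor that clears aggrecanases, stood at 119 and 304 CPM. Of 8 maturation genes 1 was at least 4-fold higher, Pcolce, an enhancer of procollagen C-proteinase, and Furin stood at 51.4 and 19.98 CPM. Of 10 regulators 3 were at least 4-fold lower, Sox9, Fos and Jun, and 1 higher, Sox4. The AP-1 gene Fos stood at 5378 and 308 CPM, and Runx2 at 110 and 112 CPM. Of 3 hyaluronan genes, Cd44, the hyaluronan receptor, went from 8.11 to 358 CPM, and Has1 and Has2 were at least 4-fold lower. Of 6 procollagen genes 2 were at least 4-fold higher and 1 lower, of 6 glycoprotein genes 3 and 1, and of 3 clearance genes 0 in either direction.

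**Figure D4:**
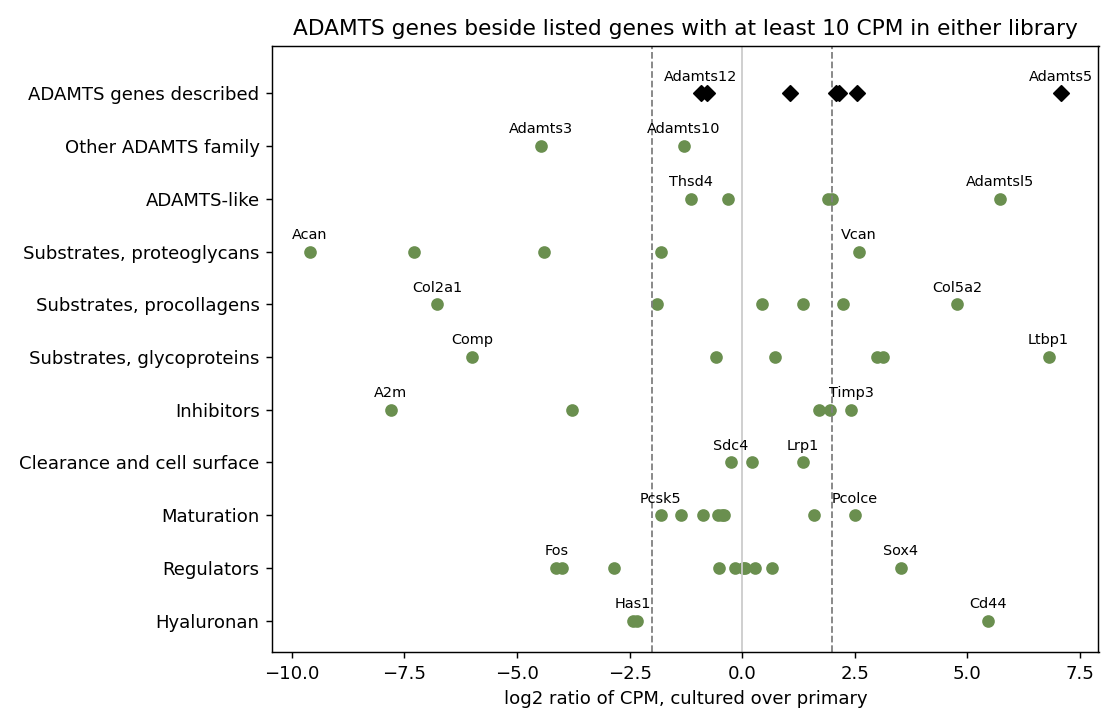
The log2 ratio of CPM, cultured over primary, for the 7 ADAMTS genes (black diamonds, top row) and for 53 listed genes that reached 10 CPM (green circles, one row per list). Dashed lines mark a 4-fold difference, and the lowest and highest gene of each list are named. Adamts5 at 7.08 lies right of every listed gene, and Acan at -9.60 lies farthest left.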

How the data were processed

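Chromium 3' v3.1 libraries of primary and cultured CDSCs had been made by the authors, 1 library each. Per the file headers and the labels, the authors ran Cell Ranger 7.0.0 against GRCm38, and deposited unnormalised UMI counts for each gene and barcode. The annotation release and whether intronic reads were counted are not given in the sources used here. The 7 genes, the gene lists and the comparisons were chosen with earlier results of these data known.

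Barcodes with at least 500 genes, 1000 UMIs and at most 10% mitochondrial UMIs were kept: 11746 of 11896 primary and 5338 of 10798 cultured barcodes. Scrublet called 0 and 1 doublets and had not worked, so no cell was removed, and leaving out the highest scores was an alternative. Counts were summed per library and scaled to CPM, with depths of 137148874 and 330129909 UMIs. Exact Poisson, Clopper-Pearson and conditional intervals at 95% were computed with scipy 1.17.1, and counts under 3 were raised to 3 in ratios. The ratio was tested on simulated Poisson counts, the spread its interval assumes. That checks the computation and not the fit of the interval to counts spread unevenly over cells. Cells were thinned without replacement to 5000 UMIs for shares. Each library was clustered by Leiden (leidenalg 0.10.2, scanpy 1.11.5; 2000 variable genes without the 7 genes, 10 components, 20 neighbours, resolution 0.5). A marker counted for a cluster at 50 CPM or more and 4-fold over the remaining cells. A name needed 3 of them, and more than any other class had. At least 1 had to be among the 10 leading genes, where no other class could have more. Failing that, a cluster was chondrocyte-like where 3 chondrocyte markers reached 1000 CPM and no class had 3 markers. Named genes were the 7 genes, listed genes that reached 10 CPM in one of the libraries, and the 3 genes of highest likeness per gene and library. Adamts14, under 10 CPM, and the genes that lead clusters were named after their values were seen. Coordinates came from the GENCODE M21 annotation of GRCm38 and promoters from RefSeq, which matched 4 of the 7 genes; Adamts4, Adamts5 and Adamts6 had no entry. TMM factors came from edgeR 4.0.16. Protein sequences were not analysed here, and some genes that the rules would name are not reported here.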

Additional observations from a re-analysis of the deposited data

Results flagged for a closer look

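The filter left out 5460 cultured barcodes, with a median of 775 UMIs and 6298068 UMIs in all, and these carried ADAMTS transcripts at a higher level than the cells kept. Adamts5 stood at 461 CPM (444 to 478) in them, against 271 CPM in the kept cells. Adamts1 stood at 198 CPM against 135 CPM, Adamts6 at 170 CPM against 80.3 CPM, Adamts12 at 26.8 CPM against 16.5 CPM and Adamts2 at 16.7 CPM against 12.7 CPM. For Adamts4 and Adamts9 the intervals of the barcodes left out held the level of the kept cells. The 150 primary barcodes left out held 210140 UMIs. Adamts6 was higher in them too, at 90.4 CPM (54.4 to 141) against 38.6 CPM. For each other gene the wide primary interval held the level of the kept cells. Whether these barcodes were damaged cells or droplets with free RNA was not tested.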

How the results depend on the processing

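Each of the 7 log2 ratios kept its sign under all 8 alternatives. Adamts5 ranged from 6.85 to 7.38, Adamts1 from 2.36 to 2.68, Adamts4 from 1.95 to 3.82, Adamts2 from 1.88 to 2.59, Adamts6 from 0.86 to 1.11, Adamts9 from -0.97 to -0.45 and Adamts12 from -1.11 to -0.87. With TMM scaling 2 genes were at least 4-fold higher and the median log2 ratio was 1.89, because Adamts4 and Adamts2 lie just above 4-fold and TMM lowers every log2 ratio by the same amount. With each cell weighing the same, 3 genes were at least 4-fold higher and the median was 1.88. Without the cells of highest Scrublet score 3 genes were, with Adamts4 at 1.98. Without primary cluster 8 and cultured cluster 10, chosen after seeing the data, the median was 2.59. The count of all genes at least 4-fold apart, 1488 at 10 CPM, was 2575 at 1 CPM and 3950 with no CPM minimum. At Leiden resolution 1.0 the most genes with their highest level in the same cultured cluster numbered 2 in place of 4. The order of libraries for each share of cells held at 2000 UMIs, while unthinned shares followed depth: Adamts9 had 10.7% and 22.7%, and Adamts12 20.4% and 38.2%. No paired analysis was possible because each group was 1 library. Without replicate libraries, the spread between animals, preparations and runs could not be measured, and 49 UMIs of Adamts4 set the precision of its ratio.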
